A study of Mus musculus with 67 samples.

Results

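The response of WT hippocampal microglia in primary culture to thapsigargin plus PDBu (Tg+PDBu) was measured by RNA sequencing of 12 libraries out of 67 in the series, 6 with Tg+PDBu and 6 with vehicle. The libraries were taken by the genotype and treatment in their names and paired by the culture code that each name begins with, so that each of 6 cultures, 3 labelled female and 3 labelled male, gave 1 library of each treatment. Treated cells received Tg at 0.2 µM and PDBu at 50 nM for 6 h, and vehicle cells received DMSO in the same volume. WT stands for Orai1fl/fl mice without Cre. The KO cultures, which served here for comparison, came from Orai1fl/fl Cx3CR1-cre/ERT2 mice, and WT cultures with LPS at 10 ng/ml for 6 h formed another set. All cultures, WT included, had been given OH-tamoxifen at 1 µM, and had been started from neonatal hippocampal tissue as mixed glia from which the microglia were shaken off and kept in serum-free medium with CSF1 and TGF-β2. The other 33 libraries came from microglia sorted from adult brain. Both WT and KO mice were among the donors, whose age was 10 to 12 weeks. Some donors were vehicle controls, and for the rest the LPS dose was 1 mg/kg, with a time of 6 h or 24 h.

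Microglia are the resident macrophages of the brain. Thapsigargin blocks the SERCA pump that fills the endoplasmic reticulum with calcium, so the stores run empty, STIM proteins sense the loss and the Orai1 channel opens at the plasma membrane. PDBu, a phorbol ester, switches on protein kinase C, and the pair of agents is a common way to start calcineurin and NFAT signalling together with kinase pathways without a surface receptor. LPS acts through Toll-like receptor signalling instead.

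The deposited table has no column of gene names or identifiers. Genes are therefore given by row number, counted downwards, and none was named by its position. Microglial markers, the targeted gene and pathway lists were therefore not looked up. Depth ran from 8379739 to 15591237 counts per library in the 12 libraries. The labels do not say that the cultures came from separate animals. With culture as a block, p-values rest on the spread of the treatment changes between these cultures. In bulk RNA, fewer cells of a kind and less RNA per cell cannot be told apart.

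Several libraries stood apart in ways that the treatment labels do not describe. Rows specific to males, chosen in the sorted libraries, reached 0.551 of their level in the male cultures in the Tg+PDBu library of female culture 3 and 0.45 in its vehicle library. The other female cultures lay between 0.0019 and 0.0157 with Tg+PDBu and between 0.00126 and 0.0322 with vehicle. The vehicle library of female culture 2 held 42 rows above 1 CPM (CPM, counts scaled to library size with TMM factors) and more than 4 times as high as in any other vehicle library. That number was not unusual, since the other 5 vehicle libraries held 14 to 71 rows by the same rule. Of the 42 rows, however, 16 had a median level with LPS more than 10 times higher still, against 0 or 1 such row in each of the other 5 vehicle libraries. The part of these 2 cultures in the results was not tested as a cause, but the main counts without each are given below.

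Tg+PDBu changed the level of most rows that could be tested. Of 12997 rows with enough counts, which held 99.79% of all counts, 4127 rose (31.8%) and 4112 fell (31.6%) at an adjusted p under 0.05 (edgeR quasi-likelihood test with culture as a block, Benjamini-Hochberg adjustment). A test for changes larger than 2-fold called 923 rows higher (7.1%) and 928 lower (7.14%). Without female culture 3 the counts were 3943 and 3854, of which 921 and 920 lay beyond 2-fold, and without female culture 2 they were 3955 and 3902. The even split of the calls rested on the scaling, since library totals with no TMM factor gave 2906 higher and 5490 lower, with the median of all rows moved to -0.22 on the log2 scale.

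With TMM scaling, decreases outnumbered increases among called rows estimated to change more than 2-fold (1385 higher and 1678 lower), and increases outnumbered decreases past 4-fold. The median absolute log2 fold change was 0.50 over all rows tested and 0.78 over called rows, and 2840 called rows (34.5%) were estimated to change by less than 1.5-fold. Rows estimated to change more than 4-fold numbered 460 higher and 404 lower, and those past 8-fold 194 higher and 88 lower. Past 16-fold there were 83 higher and 16 lower. The extremes were 7.80 and -5.60 on the log2 scale.

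**Figure D1:**
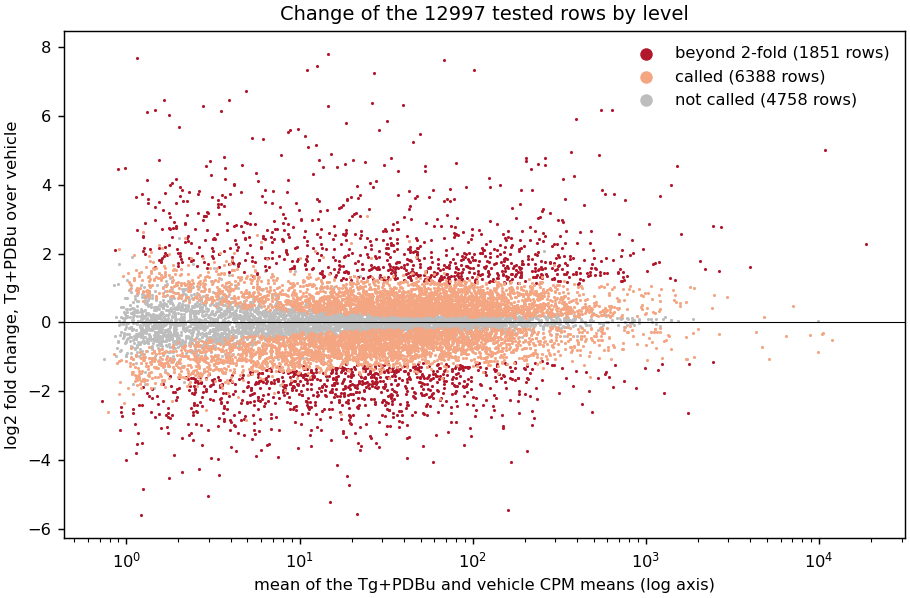
Log2 fold change (Tg+PDBu over vehicle) of each of the 12997 tested rows against its mean CPM on a log axis. Red points are the 1851 rows beyond 2-fold, orange points the other 6388 called rows and grey points the 4758 rows not called; the red points reach 7.80 above zero and -5.60 below it.

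Row 59 had the largest increase among rows at 100 CPM or more in the higher group. It stood at 167, 163 and 124 CPM in the Tg+PDBu libraries of female cultures 1 to 3 and at 180, 106 and 73.1 CPM in those of male cultures 1 to 3. The vehicle libraries of the same cultures had 0.648, 0.398, 0.771, 0.669, 0.543 and 1.05 CPM. The lowest Tg+PDBu library thus lay far above the highest vehicle library. The means were 135 ± 41.5 CPM with Tg+PDBu and 0.68 ± 0.222 CPM with vehicle (SD, n = 6 each), and the log2 fold change was 7.64 ± 0.241 (SE, edgeR adjusted p = 5.81e-08).

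Row 6097 was the other named row that rose, and it varied more between cultures. Its Tg+PDBu libraries held 346, 367 and 83.8 CPM in female cultures 1 to 3 and 256, 74.8 and 89.6 CPM in male cultures 1 to 3. With vehicle it had 0.567, 6.2 and 0.482 CPM in the female cultures and 0.803, 0.543 and 0.486 CPM in the male ones. The treatments did not overlap, but the vehicle library of female culture 2 was well above the other 5. The log2 fold change was 7.34 ± 0.373 (SE, edgeR adjusted p = 4.83e-07), and 8.19 without female culture 2.

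Row 15292 had the largest decrease among rows at 100 CPM or more in the higher group. The Tg+PDBu libraries of female cultures 1 to 3 held 7.24, 8.93 and 7.29 CPM and those of male cultures 1 to 3 held 5.79, 8.22 and 3.29 CPM. In the vehicle libraries the values were 388, 464 and 245 CPM in the female cultures and 347, 194 and 238 CPM in the male cultures. Every Tg+PDBu library was below 10 CPM and every vehicle library above 100 CPM. The log2 fold change was -5.45 ± 0.208 (SE, edgeR adjusted p = 1.21e-07).

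Row 11019 was the other named row that fell. Its Tg+PDBu libraries held 9.36, 12.8 and 32.9 CPM in female cultures 1 to 3 and 14.6, 20.9 and 24 CPM in male cultures 1 to 3. The vehicle libraries held 327, 331 and 272 CPM in the female cultures and 305, 276 and 371 CPM in the male cultures. The groups again did not overlap, and the vehicle values lay close together. The log2 fold change was -4.07 ± 0.266 (SE, edgeR adjusted p = 2.04e-06).

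**Figure D2:**
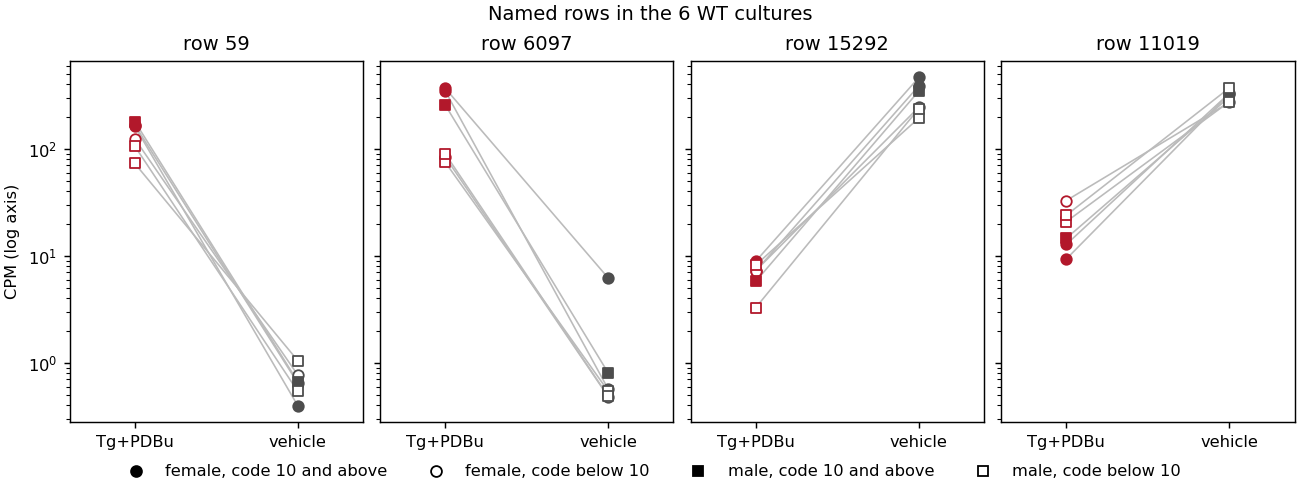
CPM (log axis) of the 4 named rows in each WT culture, with Tg+PDBu left of vehicle and a line joining the libraries of 1 culture; circles are female and squares male cultures, and filled symbols mark culture codes of 10 and above. Rows 59 and 6097 were higher and rows 15292 and 11019 lower with Tg+PDBu in all 6 cultures.

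A set of 81 rows had at least 10 CPM in every Tg+PDBu library and a mean at least 10 times that of the vehicle libraries. Their mean levels with Tg+PDBu ran from 14.8 to 21000 CPM with a median of 101 CPM, against a median of 5.45 CPM with vehicle. The opposite set, at 10 CPM or more in every vehicle library and at least 10 times lower with Tg+PDBu, had 24 rows, with a median of 4.52 CPM with Tg+PDBu and 52.3 CPM with vehicle. With library totals alone the sets had 71 and 32 rows, so the larger number of strong gains did not depend on that scaling.

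Rows of higher level were called more often and had smaller standard errors. Between 1 and 10 CPM, 19% of 3780 rows rose and 30% fell, and the median standard error of the log2 fold change was 0.25. Between 10 and 100 CPM the shares were 33% higher and 33.9% lower of 6916 rows. Between 100 and 1000 CPM, 50.2% of 2141 rows rose and 27.1% fell, with a median standard error of 0.071. With library totals alone this last class split into 36.7% higher and 38.4% lower, so the excess of increases there held for TMM, RLE and upper quartile factors and turned for totals. Among the 98 rows at 1000 CPM or more, 45 rose and 40 fell.

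**Figure D3:**
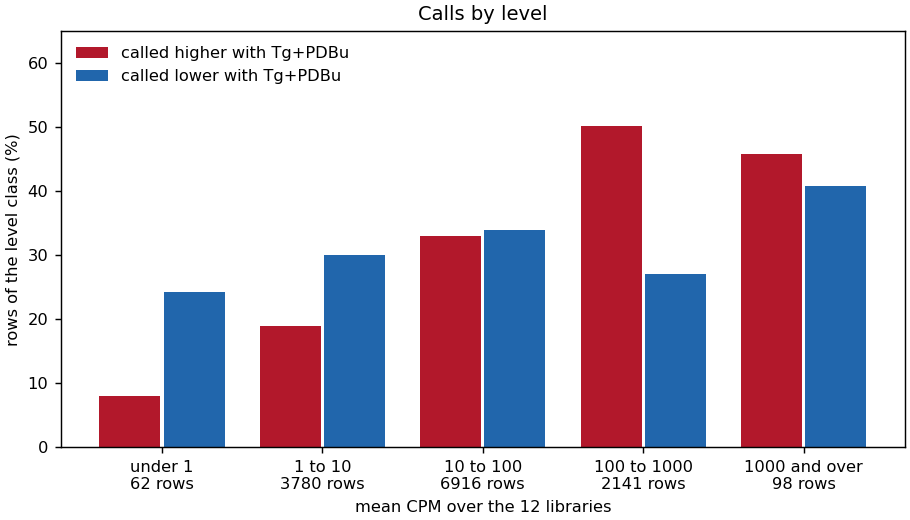
Percentage of tested rows called higher (red) and lower (blue) with Tg+PDBu in 5 classes of mean CPM. The share called higher is 19% at 1 to 10 CPM and 50.2% at 100 to 1000 CPM, and the share called lower is 30% and 27.1% in the same classes.

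The share of a library's counts held by a given set of rows needs no scaling between libraries. The sets themselves came from the TMM-scaled fit, so which rows they hold depends on it. Rows called higher held 56.8 ± 0.99% of counts with Tg+PDBu and 33.2 ± 0.602% with vehicle, and rows called lower held 22.7 ± 0.709% with Tg+PDBu and 43.3 ± 0.686% with vehicle (SD, n = 6 each). The 923 rows higher beyond 2-fold held 21.3 to 23.2% of counts in the Tg+PDBu libraries, against 5.61 to 6.57% in the vehicle libraries. The 928 rows lower beyond 2-fold held 1.99 to 2.34% with Tg+PDBu and 8 to 8.59% with vehicle. The sets were chosen on the same libraries, so these shares describe the size of the change and carry no test. Rows not called held 20.3 ± 0.34% with Tg+PDBu and 23.2 ± 0.342% with vehicle.

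**Figure D4:**
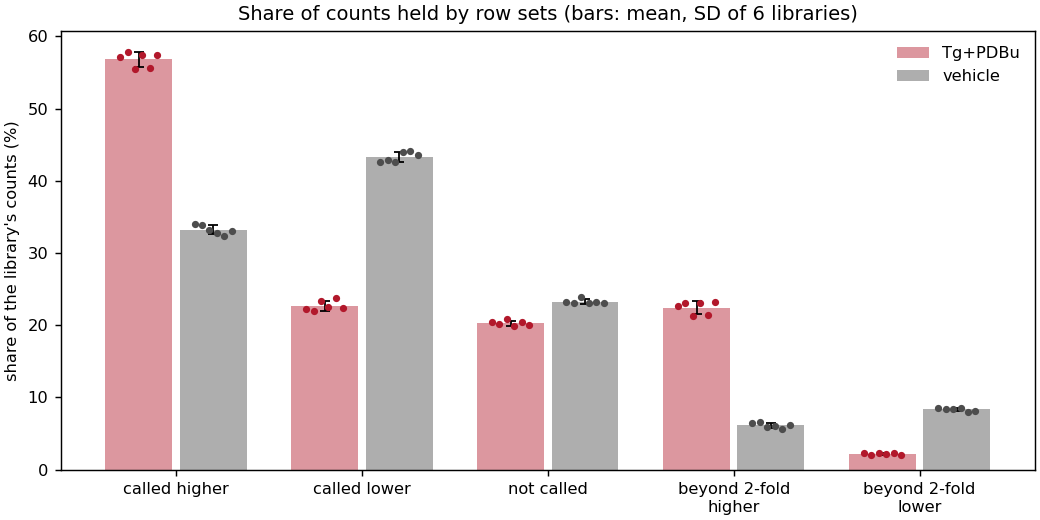
Percentage of a library's counts held by 5 sets of rows, with Tg+PDBu left of vehicle; bars are means of 6 libraries, error bars their SD and points single libraries. Rows called higher hold 55.5 to 57.8% of counts with Tg+PDBu and 32.4 to 34% with vehicle.

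A small number of rows carried much of the shift. Mean CPM was higher with Tg+PDBu in 6101 tested rows, and 140 of these accounted for 50% of the summed gain. The 10 largest gains made up 22.3% of it and the 100 largest 44.9%. On the other side, 218 of the 6896 rows with a lower mean accounted for 50% of the summed loss, and the 100 largest losses made up 39.4% of it. All counts were themselves concentrated, with 25.52% in the 100 most counted rows with Tg+PDBu and 23.97% with vehicle. The sums, 307000 CPM gained and -191000 CPM lost, depend on the TMM factors.

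The most abundant transcripts were partly exchanged. Of the 10 most counted rows, 8 were shared between Tg+PDBu and vehicle, and of the 100 most counted, 61. Among the 100 most counted rows of the Tg+PDBu libraries 67 were called higher and 21 lower. Among the 100 most counted rows of the vehicle libraries 29 were called higher and 54 lower. Over all rows tested the shares were 31.8% higher and 31.6% lower, and choosing rows by their level with 1 treatment favours calls toward that treatment, so these counts are a description.

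Counts were spread over fewer rows after treatment. The effective number of rows, which is the exponential of the Shannon entropy of a library's counts, was 3049, 2878 and 3234 with Tg+PDBu in female cultures 1 to 3 and 2856, 3084 and 2842 in male cultures 1 to 3. The vehicle libraries had 3606, 3463 and 3825 in the female and 3352, 3235 and 3341 in the male cultures. It was lower with Tg+PDBu in each of the 6 cultures, with a mean difference of -479.7 ± 166.1 (SD over the 6 pairs, two-sided exact sign-flip permutation test p = 0.03125, the smallest that 6 pairs allow). The share of counts in the 10 most counted rows was 10.68 ± 0.5628% with Tg+PDBu and 9.942 ± 0.7864% with vehicle, higher in 5 of 6 cultures, and did not pass the threshold (exact p = 0.0625). The number of rows detected at an equal depth of 8379739 counts was 17520 ± 254.4 with Tg+PDBu and 17560 ± 310.2 with vehicle (exact p = 0.4688). The share in the 100 most counted rows was the other measure tested, at 25.52% with Tg+PDBu and 23.97% with vehicle (exact p = 0.0625). Adjusted over these 4 measures by Benjamini-Hochberg, the lowest exact p became 0.0833.

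Variation between cultures was alike with and without treatment. Over 9155 rows at 10 CPM or more, the median SD of log2 CPM across cultures was 0.18 with Tg+PDBu and 0.19 with vehicle, and 48.7% of rows had the larger SD with Tg+PDBu. The median SD of the paired change was 0.23.

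The cultures answered in the same direction for most rows. Of the 8239 called rows, 7231 (87.8%) moved one way in all 6 cultures, against 57.4% of all rows tested, and among the 1851 rows beyond 2-fold 1841 did so. These rows were called on the same libraries, so the counts describe agreement and do not test it. Across rows, each culture's change had a Pearson correlation of 0.834 to 0.88 with the mean change of the other 5 cultures, with slopes between 0.90 in female culture 3 and 0.994 in male cultures 1 and 3. Male culture 2 had the most called rows moving against the fit, 290, and male culture 1 the fewest, 110.

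The numbers in the culture codes, whose meaning the labels do not give, went with differences between cultures. Female cultures 1 and 2 and male culture 1 carried codes of 10 and above, and the other 3 carried codes below 10. Deviations from the treatment mean correlated across rows at 0.076 to 0.13 between Tg+PDBu libraries of cultures with codes of 10 and above, at -0.016 to 0.3 between cultures with codes below 10, and at -0.49 to -0.26 between cultures of different ranges. Deviations from a shared mean correlate negatively on average by construction. In rows 59 and 6097 with Tg+PDBu, the 3 cultures with codes of 10 and above had the 3 highest levels, and in row 11019 with Tg+PDBu the 3 lowest. In row 15292 with Tg+PDBu the ranges overlapped, at 5.79 to 8.93 CPM with codes of 10 and above and 3.29 to 8.22 CPM with codes below 10.

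Over the larger set of rows, the size of the treatment response went with that range about as often as over all rows. Of the 1851 rows beyond 2-fold, 177 (9.56%) changed more in all 3 cultures with codes of 10 and above than in any of the other 3, and 165 (8.91%) changed less. The same was true of 7.92% and 6.76% of all rows tested. The 3 cultures with codes of 10 and above alone gave 3336 rows higher and 3463 lower, and the other 3 gave 3044 and 3053. This split was made after the data had been seen. Among the named rows it moved the log2 fold change of row 59 to 6.98 with codes below 10 alone and that of row 11019 to -4.73 with codes of 10 and above alone.

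Male and female cultures were compared by testing the difference of their responses. No row passed for males minus females with edgeR. Of 12997 rows tested, 674 had an unadjusted edgeR p under 0.05, where chance gives about 1 in 20. DESeq2 called 6 rows higher and 2 lower. Called within each sex, 3388 rows rose and 3273 fell in male cultures, and 3263 rose and 3237 fell in female cultures. The 2 sexes' fold changes had a Pearson correlation of 0.953 over 9155 rows at 10 CPM or more, a description across rows that share their libraries. Female culture 3, with its male-specific rows, entered as labelled. Without it the edgeR count was again 0, with 721 of 13116 rows at an unadjusted p under 0.05.

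Row 3896 had the lowest adjusted p for that difference, 0.0822 by edgeR, and was singled out after its values were seen. Its mean was 8.48 CPM with Tg+PDBu and 21.8 CPM with vehicle in male cultures, and 8.99 CPM with Tg+PDBu and 97.4 CPM with vehicle in female cultures. The sexes were thus close together with Tg+PDBu and apart with vehicle. The log2 fold change was -1.29 in males and -3.40 in females, a difference of 2.11 ± 0.189 (SE) that missed the threshold.

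The WT response was then set against that of KO cultures, which had 5 Tg+PDBu and 6 vehicle libraries and 4 cultures with both treatments. With culture as a block, only cultures with both treatments inform the response, 4 in KO and 6 in WT. The same holds for fold changes in KO alone, whereas KO means in CPM cover all KO libraries of a treatment. Calls in KO thus rest on fewer pairs than those in WT. In a fit of 14889 rows over 23 libraries, the response was higher in WT than in KO in 1760 rows (11.8%) and lower in 1268 (8.52%; edgeR, genotype by treatment term). RLE size factors gave 1360 higher and 1516 lower and DESeq2 gave 1533 and 1661. With TMM factors, keeping only WT cultures with codes of 10 and above gave 1291 higher and 1649 lower. Keeping only those with codes below 10 gave 741 and 751. Which of the directions prevailed thus depended on the scaling and on the WT cultures kept. KO mice carry Cre and WT mice do not, so loss of Orai1 and presence of Cre cannot be told apart.

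Rows with a strong response in WT mostly moved the same way in KO. Of the WT rows beyond 2-fold, 809 of 890 higher rows tested in KO (90.9%) were called higher there, and 817 of 917 lower rows (89.1%) were called lower. Over all rows of the KO fit 29% were called higher and 28.8% lower, and over those tested in both genotypes 31% and 28.8%. Among the higher rows the median log2 fold change was 1.97 in WT and 1.48 in KO, and among the lower rows -1.87 in WT and -1.12 in KO.

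The choice of rows in WT favours larger values in WT, so counts of the difference over these rows are given as a description. In the 923 rows higher beyond 2-fold in WT the response was called larger in WT for 448 and smaller for 27, and in the 928 lower rows it was called more negative in WT for 451 and less negative for 13. When rows were chosen beyond 2-fold in KO instead (755 higher, 5.21%, and 577 lower, 3.98%, of 14505), the medians lay closer together. They could be taken over the 673 higher and 460 lower rows that passed the count filter in WT, and came to 1.86 in WT and 1.82 in KO for the higher rows, and to -1.75 in WT and -1.77 in KO for the lower rows. Of those 755 higher rows, 164 had a larger response in WT and 117 a smaller one. Of the 577 lower rows, 65 had a more negative response in WT and 81 a less negative one. Over all 14889 rows of the genotype fit, the response was called higher in WT in 11.8% and lower in 8.52%. Counts for the KO-chosen lower rows lay near those shares, so little can be read from their split.

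**Figure D5:**
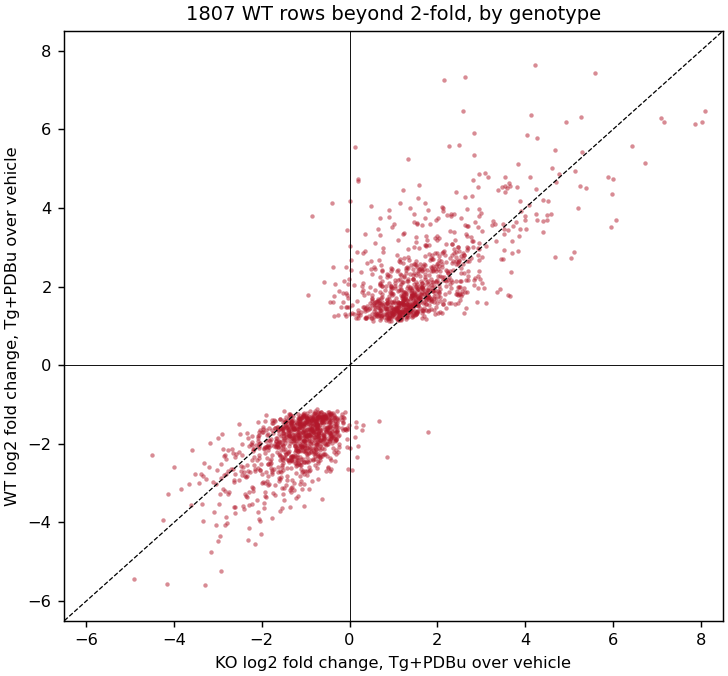
Log2 fold change with Tg+PDBu over vehicle in WT (vertical) and KO cultures (horizontal) for the 1807 rows beyond 2-fold in WT that passed the count filter of the KO fit; the dashed line marks equal change. The empty band around zero on the vertical axis comes from choosing rows by their WT change, and 809 higher and 817 lower rows were called in the same direction in KO.

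The 10-fold sets mostly shared their direction between the genotypes. Of the 81 rows with at least 10 times the vehicle mean in WT, 79 were at least 2 times higher in the KO means and 32 at least 10 times higher, and the difference between genotypes was called for 50 rows with the larger response in WT and 1 with the smaller. Each of the 24 rows at least 10 times lower in WT was lowered to 50% or less in the KO means. Only 2 of the 24 were lowered by at least 10 times in KO, and for 20 of the 24 the response was called more negative in WT. These sets, too, were chosen on WT values, which favours a larger change in WT, so the counts are a description. Over all rows of the genotype fit 11.8% were called higher in WT and 8.52% lower. No 10-fold set was chosen on KO values.

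Row 3069 differed most between the genotypes among rows at 20 CPM or more in any group. With Tg+PDBu it had 67.1, 74.7 and 37.5 CPM in female WT cultures 1 to 3 and 62.2, 36.8 and 44.2 CPM in male WT cultures 1 to 3, and it averaged 3.3 ± 2.62 CPM in KO (SD, n = 5). With vehicle the WT mean was 0.364 ± 0.362 CPM and the KO mean 0.753 ± 0.403 CPM (SD, n = 6 each). Every WT library with Tg+PDBu lay above every KO one, the highest of which had 7.73 CPM. The difference of the log2 fold changes was 5.21 ± 0.93 (SE, edgeR adjusted p = 0.00244).

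Row 5671 was the other row with a larger response in WT, and it varied widely between cultures. With Tg+PDBu it had 37.6, 0.824 and 23 CPM in female WT cultures 1 to 3 and 44.7, 13.2 and 12.3 CPM in male WT cultures 1 to 3, against 0.471 ± 0.745 CPM in KO (SD, n = 5). Female culture 2 lay close to the highest WT vehicle library, which had 0.736 CPM. The difference was 5.16 ± 1.39 on the log2 scale (SE, edgeR adjusted p = 0.022). It was 6.24 without male culture 1, which had that vehicle value, and did not pass without the culture block (edgeR adjusted p = 0.0556). Nor did it pass when WT cultures with codes of 10 and above, or below 10, were kept alone beside all KO cultures (0.0585 and 0.0521).

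Row 16008 fell in WT and did not pass the test in KO. Its WT mean with Tg+PDBu was 3.3 ± 0.737 CPM and its KO mean 12.4 ± 2.44 CPM, and with vehicle it averaged 21.6 ± 2.86 CPM in WT and 14.5 ± 1.76 CPM in KO (SD, n = 5 for KO with Tg+PDBu and n = 6 otherwise). The difference was -2.59 ± 0.232 (SE, edgeR adjusted p = 4.22e-05), and the response in KO alone was 0.05 ± 0.13 on the log2 scale (SE, adjusted p = 0.763). Row 14502 rose in both genotypes but more in KO, with Tg+PDBu means of 3.88 ± 2.47 CPM in WT and 22.7 ± 5.12 CPM in KO beside vehicle means under 1 CPM. Its difference was -2.36 ± 0.6 (SE, edgeR adjusted p = 0.0163). It did not pass when only WT cultures with codes of 10 and above were kept beside all KO cultures (-1.41, edgeR adjusted p = 0.401).

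The 4 rows named for the WT response also changed in KO. Row 59 averaged 11 ± 9.47 CPM with Tg+PDBu and 0.504 ± 0.278 CPM with vehicle in KO, a log2 fold change of 4.22 ± 0.496 (SE, edgeR adjusted p = 0.000558) beside 7.64 in WT. Row 6097 changed by 2.63 ± 0.316 in KO beside 7.34 in WT. Row 15292 changed by -4.91 ± 0.169 in KO beside -5.45 in WT, and row 11019 by -2.83 ± 0.123 in KO beside -4.07 in WT.

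Tg+PDBu and LPS were compared directly in the 18 WT libraries, where the same cultures received each agent. Of 13438 rows, 4071 were higher with Tg+PDBu than with LPS (30.3%) and 3974 lower (29.6%; edgeR with culture as a block). Of the 81 rows gained 10-fold with Tg+PDBu, 25 were also at least 10 times the vehicle mean with LPS and 23 were below it (30.9% and 28.4%), against 1.72% and 55.9% of all rows tested. The gained rows were chosen for low vehicle levels, and the vehicle libraries are shared, so these shares describe levels and carry no test. Row 6097, gained with Tg+PDBu, averaged 203 ± 137 CPM with Tg+PDBu and 2980 ± 1970 CPM with LPS (SD, n = 6 each). Row 59 averaged 135 ± 41.5 CPM with Tg+PDBu and 4.91 ± 2.84 CPM with LPS.

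Row 693 was the row most in favour of LPS among those at 20 CPM or more in any group. It averaged 0.468 ± 0.182 CPM with Tg+PDBu and 939 ± 541 CPM with LPS (SD, n = 6 each), a log2 fold change of -11.00 ± 0.638 (SE, edgeR adjusted p = 3.13e-09). The vehicle library of female culture 2 had 39 counts of it, whereas the other 5 vehicle libraries had 0. Row 14695 averaged 0.195 ± 0.225 CPM with Tg+PDBu and 210 ± 81.4 CPM with LPS, a log2 fold change of -10.10 ± 0.389 (SE, edgeR adjusted p = 5.79e-11), or -10.90 without female culture 3.

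On the other side, row 1217 averaged 25 ± 8.58 CPM with Tg+PDBu and 0.133 ± 0.207 CPM with LPS (SD, n = 6 each), a log2 fold change of 7.47 ± 0.469 (SE, edgeR adjusted p = 6.98e-09) that came to 8.29 without female culture 1 and 8.10 without male culture 2. Row 1217 had 3 counts with LPS in each of those cultures and 0 in the other WT cultures. The size of this fold change therefore rests on few counts. With vehicle the row averaged 0.142 ± 0.1 CPM, close to its level with LPS. Row 284 had 48, 37.8 and 16.5 CPM with Tg+PDBu in female cultures 1 to 3 and 37.2, 14.3 and 19.7 CPM in male cultures 1 to 3. With LPS it had 1 count in the 6 libraries together, in male culture 1, so no fold change is given. Its vehicle mean was 0.372 ± 0.187 CPM.

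The WT list was last set beside a response measured in other libraries, that of microglia sorted from adult WT mice 24 h after LPS at 1 mg/kg (8 libraries) against vehicle (6 libraries). Mean levels at the same row number had a Spearman correlation of 0.856 over 23497 rows, and 0.367 when one table was moved by 1 row, so the row numbers were taken to match. Among 11194 rows tested in both, 884 rose in both, which is 24.2% of the Tg+PDBu list and 42.7% of the sorted list, whereas 18.5% of these rows, and 16.8% of all rows tested there, rose in sorted cells. In both experiments 712 fell, 19.9% of the Tg+PDBu list and 42% of the sorted list, against 15.1% of these rows and 15.2% of all rows tested there. Opposite calls comprised 459 rows higher in culture and lower in sorted cells, 12.6% of the list against 15.1% lower over these rows, and 659 rows lower in culture and higher in sorted cells, 18.4% of the list against 18.5% higher. The agent, time, age, tissue and library kit all differed, and their parts cannot be told apart.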

How the data were processed

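Raw counts, in whole numbers, were deposited for each library. The submitters' processing notes name the GRCm38 build with Salmon 1.10.1, STAR 2.7.10a and Trim Galore 0.6.7, and the counting settings are not given in the sources used here. Of 45707 rows, 24604 had a count in the 12 libraries. In R 4.3.3, rows were filtered with filterByExpr (minimum count 10, minimum total 15), scaled by TMM and fitted in edgeR 4.0.16 (quasi-likelihood F test), with culture as a block and an adjusted p under 0.05 for a call. The test beyond 2-fold was glmTreat. Tests were two-sided. DESeq2 1.42.0 and limma 3.58.1 (voom) served as alternatives. Each SE is the fold change divided by the square root of F. Printed CPM used TMM factors of the 34 culture libraries, and log2 CPM a prior count of 2. Counts carry no molecular identifiers, and no column of another sample was used (0 unused per-sample columns).

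Same-numbered libraries came from 1 culture per the labels, and the pairing was used on that ground. Their deviations from the treatment means correlated at 0.188 to 0.492 within the 6 cultures, and at up to 0.337 between different cultures. In each treatment, 5 of the 6 libraries had their own culture as the best match. No 2 libraries of a group were alike within counting error (chi-square at least 9.15 per degree of freedom). Named rows are the 2 largest changes in each direction among called rows, with the same direction in all 6 cultures and at least 100 CPM in the higher group for the main comparison, and at least 20 CPM in any group otherwise. Sex-specific rows had at least 1 CPM in every sorted library of 1 sex, a mean of at least 5 CPM there and under 2% of it in the other sex. Scripts were run on simulated counts with 200 rows changed, far fewer than were called here. That run therefore cannot show how scaling acts when most rows change. The libraries, lists, rules and tests were chosen with earlier results of these data known. Gene and marker lists were not tested, since rows have no names, and no sequence is shown for the same reason. Standard alternatives covered scaling, filtering, test, culture block and each culture left out.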

Additional observations from a re-analysis of the deposited data

Results flagged for a closer look

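Of 40 groups of values from the named rows and the library measures, 4 held a library far from the rest. Chance gives about 1 in 20 for normally distributed values. That rate does not apply to CPM near the floor, where the flagged values lay, so no excess over chance is claimed. Row 6097 had 6.2 CPM in the vehicle library of WT female culture 2, well above the other 5 vehicle libraries. Row 5671 had 0.736 CPM in the vehicle library of WT male culture 1 and 1.8 CPM in the Tg+PDBu library of KO female replicate 2, each the highest of its group. Row 284 had 0.116 CPM, or 1 count, in the LPS library of WT male culture 1 and 0 in the other 5.

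The response differed between genotypes by its own test in 4 named rows, with a WT minus KO difference on the log2 scale of 5.21 for row 3069, 5.16 for row 5671, -2.59 for row 16008 and -2.36 for row 14502.

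Male-specific rows, which no comparison used, were present in all libraries of WT female culture 3. Relative to the male cultures they reached 0.551 with Tg+PDBu, 0.443 with LPS and 0.45 with vehicle. The female-specific row, number 28290, stood there at 0.331 with Tg+PDBu, 0.266 with LPS and 0.473 with vehicle of its level in the other female cultures. Which cells or animals this culture held was not tested.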

How the results depend on the processing

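All named changes of the main comparison kept their direction and call under every alternative run, as did the counts of its calls within 1.5 times. Without a culture term, that is with no replicate block, 3913 rows were higher and 3700 lower. RLE factors gave 4021 and 4210, no filter 3772 and 4498, DESeq2 3928 and 4117, voom 4173 and 4133, and upper quartile factors 3422 and 4781. Leaving out each culture in turn gave 3772 to 3955 higher and 3776 to 4065 lower. Males minus females gave 0 calls in each direction with edgeR, 6 higher and 2 lower with DESeq2, and 4 higher and 1 lower with no filter; voom, RLE factors, no culture term and the leave-one-out fits gave 0. WT minus KO counts moved to 741 higher and 751 lower when only WT cultures with codes below 10 were kept, a fit with fewer samples. The drop in the effective number of rows was -545 to -458 with each culture left out, with exact p = 0.0625 in each, the smallest 5 pairs allow. Library totals, upper quartile factors, code ranges and the alternatives for the lists shared with KO and sorted cells were chosen after seeing the data. Rows under 10 CPM have larger errors, so changes there were less often detectable at this depth.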
